A study of Mus musculus with 48 samples.

Results

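The comparison described here sets C2C12 cells at 1.5 h of differentiation against the same line at 0 h. C2C12 is an established mouse myoblast line whose cells stop dividing and form multinucleate myotubes in low serum. The members were taken from the labels: the 3 arrays labelled 1.5hr_differentiation and the 3 labelled 0hr_ctrl, 6 of the 48 Affymetrix MOE430v2 arrays of a time course. The 0 h cells were in DMEM with 20% fetal bovine serum, and the 1.5 h cells had been changed to DMEM with 2% horse serum. Neither group received cycloheximide or another drug. The 3 replicates were separate growths from successive passages. No array is labelled as cells kept in growth medium past 0 h, and an effect of the new medium and one of the elapsed time cannot be told apart. C2C12 is a single line, and these are bulk cultures, in which fewer cells of a type and less RNA per cell cannot be told apart.

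Immediate early genes are transcribed without new protein synthesis when cells meet serum, growth factors or a mechanical change, in large part through serum response factor (SRF), the cyclic AMP response element binding protein and the YAP and TEAD factors. Many of their transcripts are unstable and encode transcription factors, feedback inhibitors of kinases, or proteins that control mRNA decay, so the set of raised transcripts turns over quickly. In myoblasts the Id proteins hold MyoD and its relatives inactive, and the muscle structural genes follow later.

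RNA levels are log2 values made with RMA, per the submitters' processing notes, 1 probe set for each of 18193 genes. The medians of the 6 arrays lay between 4.01 and 4.09. The correlation between arrays was 0.99105 to 0.99580 within the groups and 0.98587 to 0.99640 between them, ranges that overlap. The 10 myoblast markers were all at 8.35 or more at 0 h, summed to 100.9 to 105.3 at 0 h and 99.99 to 104.9 at 1.5 h, and none was called in the fit used throughout. Of the 8 endothelial markers all were under 5 at 0 h, as were 7 of the 9 leukocyte markers, and none of either list was called. Fewer were under 5 in other lists: 6 of 8 bone and cartilage, 4 of 8 neuronal, 3 of 6 adipocyte and 2 of 8 smooth muscle markers. The highest members of those lists stood at 6.9, 7.95, 10.5 and 13.5 at 0 h, in that order, and none was called. The 3′ minus 5′ signal of the array's Gapdh control was -0.03 ± 0.03 (SD, n = 3) at 0 h and -0.04 ± 0.03 at 1.5 h.

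At 1.5 h, 77 of the 18193 genes differed from 0 h (0.423%) in limma at a Benjamini-Hochberg adjusted p under 0.05. Of these 38 were higher (0.209%) and 39 lower (0.214%). The rises ran from 0.35 to 2.09 on the log2 scale with a median of 0.69, and 7 reached 2-fold. The falls ran from -0.52 to -1.62 with a median of -0.79, and 6 reached 2-fold. All 77 genes had the 3 arrays of one group beyond the 3 of the other, which held for 9.65% of all genes upward and 7.26% downward. At an unadjusted p under 0.05, 930 genes were higher and 920 lower. The median difference over all genes was 0.0397.

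The deviations of same-numbered arrays from their group means correlated weakly, at 0.136, 0.374 and 0.178 over genes. Pairs of unlike number gave 0.166, 0.149 and 0.125, and otherwise negative values down to -0.412. Over all 16 groups, the 360 pairs of the same number had a median correlation of 0.315, with 300 over 0.1 and a lowest of -0.46. The design text does not say that a number marks one growth, so pairing was assumed. Under it, limma with the replicate number as a block called 227 genes, 85 higher and 142 lower, the 77 among them. The count without a block fell to 33 without replicate 2 of 0 h, to 27 without replicate 3 of 0 h, to 49 without replicate 2 of 1.5 h and to 41 without replicate 3 of 1.5 h. Of 74 called genes with a gene name, 19 passed whichever array was left out, 12 of them higher (Ankrd1, Ccn2, Coq10b, Edn1, Gadd45b, Lzts1, Noct, Plk2, Ptger4, Srf, Tnfaip3 and Trmt6) and 7 lower (Ddit4, Foxc2, Khnyn, Pde4b, Tob1, Tob2 and Zfp512). The other 55 lost the call without at least 1 array. A fit to the 6 arrays alone, without the other groups' estimate of the spread, called 2 genes, Ccn2 and Noct.

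**Figure D1:**
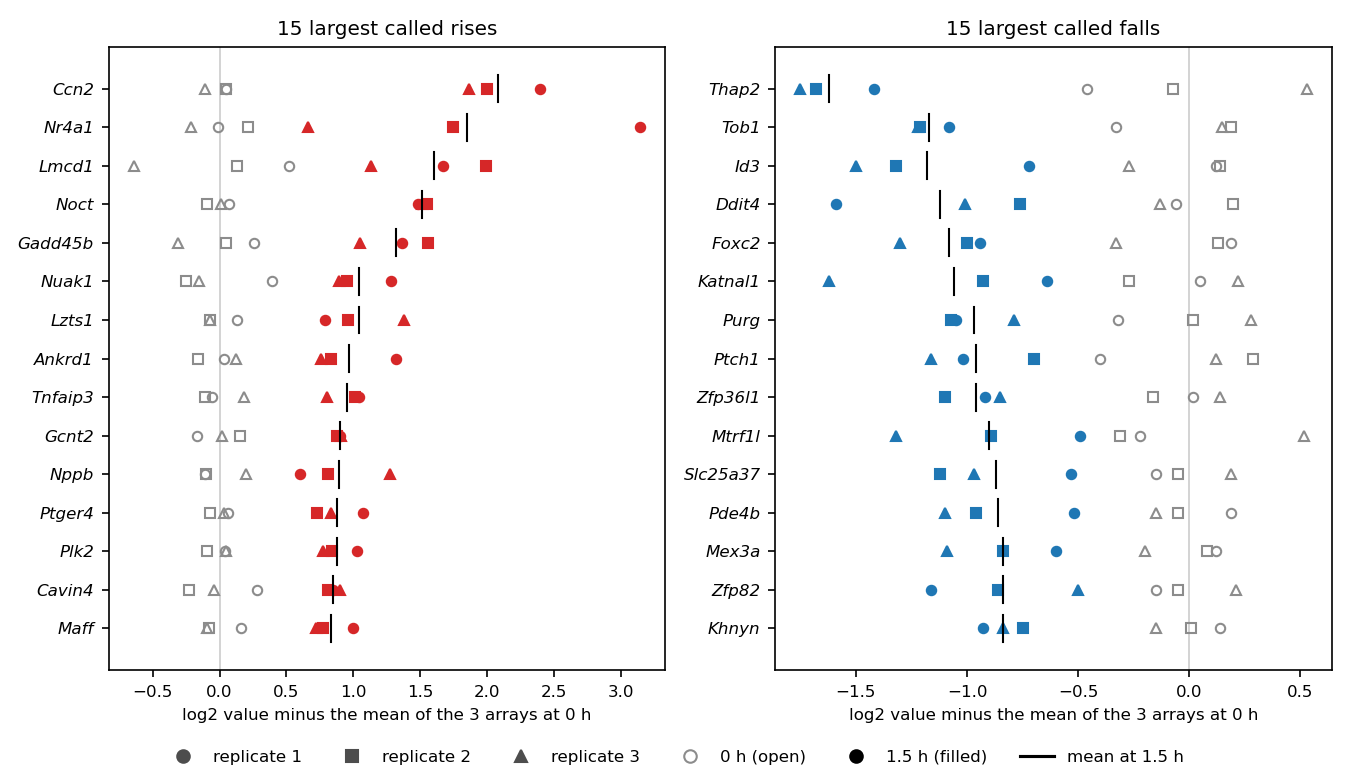
Each point is 1 array's log2 value minus the mean of the 3 arrays at 0 h, for the 15 called rises (left) and the 15 called falls (right) of largest size. Open symbols are 0 h, filled symbols 1.5 h, shapes give the replicate and the black bar the mean at 1.5 h; in every row the filled symbols lie beyond the open ones, and Nr4a1 has the widest spread at 1.5 h.

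Among the targets of SRF and YAP, 3 of 21 measured genes rose and none fell, with a median of 0.176. Ccn2 encodes connective tissue growth factor, a secreted matrix protein. Its values were 10.27, 10.27 and 10.11 on the 0 h arrays and 12.61, 12.22 and 12.08 on the 1.5 h arrays, in the order of replicates 1 to 3. The lowest array at 1.5 h stood well above the highest at 0 h. The difference was 2.09 (SE 0.24, adjusted p = 1.89e-06), a 4.25-fold rise and the largest of the comparison. Ankrd1, a nuclear and sarcomeric ankyrin repeat protein, read 10.92, 10.73 and 11.01 at 0 h and 12.21, 11.72 and 11.65 at 1.5 h. Replicate 1 was the highest at 1.5 h and the groups did not overlap; the difference was 0.97 (SE 0.18, adjusted p = 0.00331). Edn1, the precursor of the vasoconstrictor endothelin-1, read 5.03, 5.11 and 5.12 at 0 h against 6.05, 5.76 and 5.67, a difference of 0.74 (SE 0.13, adjusted p = 0.00331). Its 0 h arrays lay within 0.1 of each other and every 1.5 h array was above them.

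Ccn1, the close relative of Ccn2, did not pass. It read 9.68, 9.31 and 9.41 at 0 h and 11.11, 9.79 and 9.88 at 1.5 h, so replicate 1 stood apart from replicates 2 and 3. The difference was 0.79 (SE 0.27, adjusted p = 0.257) and 0.37 without replicate 1 of 1.5 h. It was -0.05 (adjusted p = 0.958) on the probe set used when names ending in _s_at, _x_at or _a_at are left out. That probe set had a mean of 6.45 over the 48 arrays, against 10.14 for the one used here. Of the remaining probe sets, that with a mean of 9.11 gave 0.83 (limma, unadjusted p = 0.034) and that with 6.38 gave 0.15 (0.564). Fhl2, a LIM protein, and Amotl2, an angiomotin, are other members of the list. They differed by 0.69 and 0.49 with adjusted p of 0.0635 and 0.411. With the block the adjusted p was 0.000676 and 0.0126, which made the list's count 5 of 21. Over all genes the block raised the count from 77 to 227.

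Srf itself was among 2 of 19 other immediate early genes that rose, and none fell. It read 8.54, 8.40 and 8.38 at 0 h and 9.24, 9.07 and 9.25 at 1.5 h. The 3 arrays of each group lay close together, and the difference was 0.75 (SE 0.12, adjusted p = 0.00132). On its other probe set the difference was 0.42 with an unadjusted p of 0.0312, and there the call was lost (adjusted p = 0.428). Plk2, a polo-like kinase first known as serum-inducible, read 8.80, 8.67 and 8.81 at 0 h and 9.79, 9.60 and 9.53 at 1.5 h. Its difference was 0.88 (SE 0.16, adjusted p = 0.00337), and no array of one group reached the other. The median of the list was 0.228, and with the block the related kinase Plk3 was called as well (0.69, adjusted p = 0.00934 against 0.106).

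Of 17 AP-1, Egr and Nr4a transcription factors, Nr4a1 and Maff rose and none fell, with a median of 0.223. Nr4a1, an orphan nuclear receptor, read 6.61, 6.83 and 6.41 at 0 h and 9.76, 8.36 and 7.28 at 1.5 h. The 3 growths differed by more than 2 log2 units at 1.5 h, although all 3 were above the 0 h arrays. The difference was 1.85 (SE 0.34, adjusted p = 0.00337), and without replicate 1 of 1.5 h it was 1.2 with an adjusted p of 0.0583. Maff, a small Maf protein that pairs with other leucine zipper factors, read 6.27, 6.03 and 6.02 against 7.11, 6.88 and 6.83. The difference was 0.83 (SE 0.17, adjusted p = 0.0139), lost without replicate 2 or 3 of 0 h or replicate 1 of 1.5 h, where the adjusted p reached 0.103.

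The best-known members of this list did not pass the test at this time. Fos, the partner of Jun in AP-1, read 6.72, 6.82 and 7.0 at 0 h and 6.85, 6.64 and 6.39 at 1.5 h, with the groups overlapping. Egr1, a zinc finger factor, read 11.15, 11.26 and 11.44 at 0 h and 11.18, 10.84 and 10.71 at 1.5 h. Their differences of -0.22 (SE 0.29, adjusted p = 0.832) and -0.37 (SE 0.15, adjusted p = 0.380) did not pass. Myc, a growth regulator from another list, read 7.13, 6.98 and 7.05 against 8.03, 7.29 and 7.22. All 3 arrays at 1.5 h were above 0 h, but replicate 1 set most of the difference of 0.46 (SE 0.22, adjusted p = 0.474).

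Several raised genes came from outside these lists. Lmcd1, a LIM and cysteine-rich domain protein of muscle and heart, read 6.84, 6.45 and 5.68 at 0 h and 7.99, 8.31 and 7.45 at 1.5 h. Replicate 3 was the lowest of its group at both times. The difference of 1.60 (SE 0.37, adjusted p = 0.0334) had an adjusted p of 3.36e-07 with the block. Without replicate 2 or 3 of 0 h, or replicate 1 or 2 of 1.5 h, it did not pass, and its adjusted p reached 0.361. Nuak1, a kinase related to AMP-activated kinase, read 7.45, 6.81 and 6.91 against 8.34, 8.01 and 7.95. Its difference was 1.05 (SE 0.24, adjusted p = 0.0358), with an adjusted p of 9.99e-07 in limma with the block. Leaving out any array but replicate 1 of 0 h ended the call, with adjusted p up to 0.250. The difference stayed between 0.92 and 1.24 in those fits.

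The promoters of raised genes are shown because Srf and 3 genes of its and YAP's target list rose together with other early genes. RefSeq promoters of build GRCm38.p6, 250 bases before to 50 after the annotated start, were matched for 27 of the 38 raised genes, 32 of the 39 lowered genes and 14368 of the 18193 genes measured. The CArG box bound by SRF lay in 2 of the 27 raised (7.41%), in none of the 32 lowered and in 1.59% of all measured genes. The cyclic AMP response element TGACGTCA lay in 3 (11.1%), none and 2.94%. The TEAD motif GGAATG lay in 6 (22.2%), 4 (12.5%) and 15.3%, and the AP-1 motif TGACTCA in 1 (3.70%), none and 5.34%. The E-box CACGTG lay in 8 (29.6%), 4 (12.5%) and 10.3%, and the TATAAA box in 6 (22.2%), 4 (12.5%) and 11.5%. Both strands were searched, and among all 32851 promoters of that length in the table the shares were 1.63% for the CArG box, 1.79% for the cyclic AMP response element, 14.7% for TEAD, 5.2% for AP-1, 7.15% for the E-box and 13.6% for TATAAA. A match of letters is a description and shows no binding. Ccn2, the largest rise, is among the raised genes without a promoter entry. The 5 raised genes printed below all hold a match, and do not stand for the 27. They include every raised gene found with a CArG box or the cyclic AMP response element. The 250 bases before the start are printed 5′ to 3′ on the gene's strand for 5 raised genes, with the matches in capitals: in Srf 2 CArG boxes and a TATAAA box read on the other strand, in Lmcd1 a CArG box and the cyclic AMP response element, in Plk2 and Maff that element, with an E-box in Maff, and in Ankrd1 2 TEAD motifs. They lie at chr17:46556163-46556412 (minus strand), chr6:112273508-112273757 (plus), chr13:110394794-110395043 (plus), chr15:79347270-79347519 (plus, 1 of 3 promoters listed for Maff) and chr19:36119845-36120094 (minus), in that order.
Srf: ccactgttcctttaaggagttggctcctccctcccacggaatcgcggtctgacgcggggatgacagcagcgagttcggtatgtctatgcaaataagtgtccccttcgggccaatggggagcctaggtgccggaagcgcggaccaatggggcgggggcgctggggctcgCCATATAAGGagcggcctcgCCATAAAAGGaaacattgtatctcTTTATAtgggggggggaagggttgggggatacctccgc
Lmcd1: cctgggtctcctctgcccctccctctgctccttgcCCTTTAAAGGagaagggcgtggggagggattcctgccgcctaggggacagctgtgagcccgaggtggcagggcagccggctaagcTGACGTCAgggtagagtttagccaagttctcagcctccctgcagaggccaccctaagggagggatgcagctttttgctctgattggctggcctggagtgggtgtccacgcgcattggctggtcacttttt
Plk2: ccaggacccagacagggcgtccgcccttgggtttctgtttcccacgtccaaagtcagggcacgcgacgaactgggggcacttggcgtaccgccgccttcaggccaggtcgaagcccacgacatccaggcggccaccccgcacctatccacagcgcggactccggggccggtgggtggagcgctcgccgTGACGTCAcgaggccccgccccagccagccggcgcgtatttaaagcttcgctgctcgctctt
Maff: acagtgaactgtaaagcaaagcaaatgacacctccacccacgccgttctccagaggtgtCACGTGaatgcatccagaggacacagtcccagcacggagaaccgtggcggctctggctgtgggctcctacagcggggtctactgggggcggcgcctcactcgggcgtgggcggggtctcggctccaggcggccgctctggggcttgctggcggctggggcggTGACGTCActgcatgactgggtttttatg
Ankrd1: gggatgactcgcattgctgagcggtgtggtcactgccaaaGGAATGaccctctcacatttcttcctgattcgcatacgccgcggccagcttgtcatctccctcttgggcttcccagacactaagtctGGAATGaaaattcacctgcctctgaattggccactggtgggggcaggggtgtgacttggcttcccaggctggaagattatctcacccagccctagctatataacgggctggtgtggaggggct

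In the list of mRNA decay and deadenylation genes, 1 of 13 measured rose and 3 fell, with a median of -0.231. The one that rose was Noct, nocturnin, a rhythmically expressed relative of the deadenylases that acts as a phosphatase on NADP(H). It read 6.37, 6.21 and 6.31 at 0 h and 7.78, 7.85 and 7.81 at 1.5 h. The 1.5 h arrays lay within 0.1 of each other, and the difference was 1.52 (SE 0.17, adjusted p = 1.46e-06). Noct is also the only called gene of 18 circadian clock genes, whose median was 0.105; with the block Nfil3, a leucine zipper repressor, was called too (0.59, adjusted p = 0.0382). The median of the clock list was -0.0985 with the filter on low values. Noct, Coq10b, Edn1, Lmcd1, Lzts1 and Slc25a37 were the 6 called genes read only on a probe set whose name ends in _s_at, _x_at or _a_at, which can match more than 1 transcript, so they have no value without such probe sets.

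Tob1 and Tob2 bring the CCR4-NOT deadenylase to mRNAs and restrain proliferation. Tob1 read 8.28, 8.80 and 8.76 at 0 h and 7.53, 7.40 and 7.39 at 1.5 h, lower on every 1.5 h array. The difference was -1.18 (SE 0.19, adjusted p = 0.00132). Tob2 read 8.23, 8.56 and 8.55 against 7.57, 7.82 and 7.82, a difference of -0.71 (SE 0.13, adjusted p = 0.00341). Replicate 1 was the lowest in both groups. The Tob2 call rests on probe sets that can cross-hybridise: without them the adjusted p was 0.885, and with the mean of its probe sets 0.121. Zfp36l1, which binds AU-rich elements and speeds decay, read 9.44, 9.26 and 9.56 at 0 h and 8.50, 8.32 and 8.57 at 1.5 h. The groups lay far apart, with a difference of -0.96 (SE 0.21, adjusted p = 0.0244). That call was lost without any 1 of the 6 arrays, with adjusted p from 0.0613 to 0.190, though the difference stayed between -1.04 and -0.89. With the block its adjusted p was 0.000137. The promoter of Tob1, the fall with the largest size among those called without any single array, holds a TATAAA box, in capitals, at chr11:94211204-94211453 (plus strand).
Tob1: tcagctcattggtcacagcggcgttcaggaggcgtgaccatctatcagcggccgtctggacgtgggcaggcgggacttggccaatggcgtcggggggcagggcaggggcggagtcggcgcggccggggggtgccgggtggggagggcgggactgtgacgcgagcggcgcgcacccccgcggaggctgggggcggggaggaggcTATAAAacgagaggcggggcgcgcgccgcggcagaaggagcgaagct

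Among 18 Gadd45, p53 and stress genes, Gadd45b and Plk2 rose and Ddit4 fell, with a median of -0.278. Gadd45b, which activates stress kinases and takes part in growth arrest, read 7.67, 7.46 and 7.10 at 0 h and 8.77, 8.97 and 8.46 at 1.5 h. Replicate 3 was the lowest at both times, and the difference was 1.33 (SE 0.22, adjusted p = 0.00132). Ddit4, also called REDD1, is an inhibitor of the growth kinase mTORC1. It read 8.02, 8.28 and 7.95 against 6.49, 7.32 and 7.07. Replicate 1 fell furthest, and the difference was -1.12 (SE 0.20, adjusted p = 0.00271). Cdkn1a, the inhibitor of cyclin-dependent kinases that marks cell cycle exit, read 11.03, 9.88 and 10.05 against 11.14, 10.29 and 10.31. Replicate 1 was high at both times, and the difference of 0.25 (SE 0.36) did not pass (adjusted p = 0.842).

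**Figure D2:**
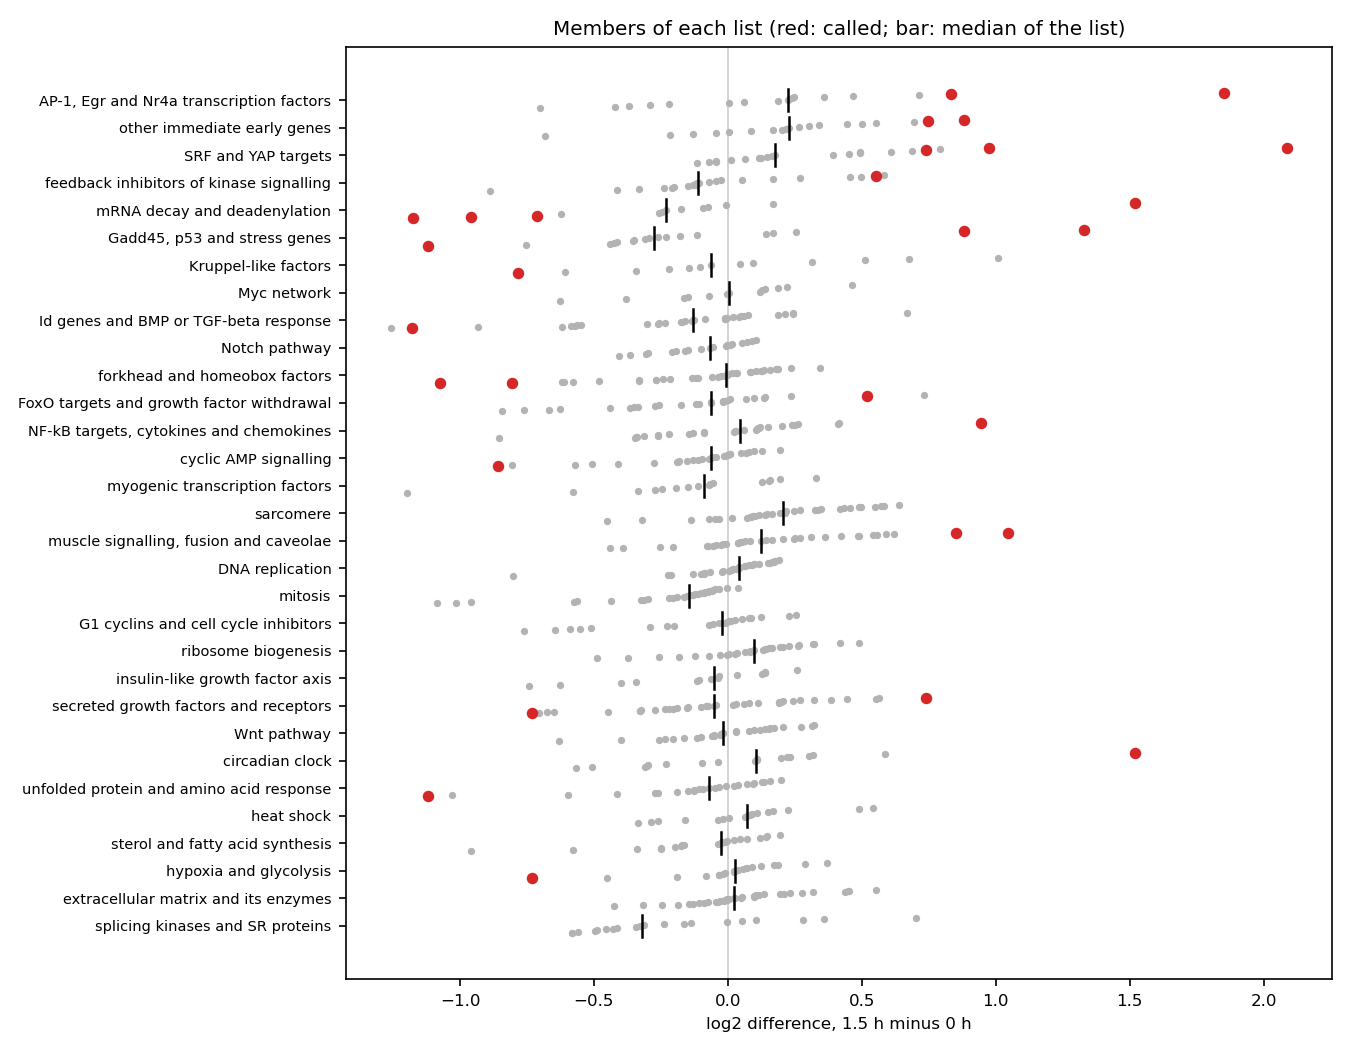
Each point is a measured gene of a list at its log2 difference, 1.5 h minus 0 h, with called genes in red and the median of the list as a black bar. Most members of every list lie between -0.5 and 0.5, and Ccn2 at 2.09 is the largest rise.

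Of the Id genes, inhibitors of differentiation, Id3 passed the test. Id3, a helix-loop-helix protein without a DNA-binding domain, was the 1 called gene of 33 in the list of Id genes and the BMP or TGF-beta response, whose median was -0.128. It read 11.95, 11.97 and 11.56 at 0 h and 11.11, 10.51 and 10.33 at 1.5 h, with all 1.5 h arrays lower. The difference was -1.18 (SE 0.29, adjusted p = 0.0487). The call was lost without any array other than replicate 1 of 1.5 h, where adjusted p reached 0.308, with trend and robust moderation (0.0603), without the cycloheximide arrays (0.0710) and with the mean of probe sets (0.0505). Id3 was read on only 1 probe set, so in that last setting its difference was the same and only the adjusted p moved. Id1, of the same family, read 10.002, 9.69 and 9.18 against 8.95, 8.02 and 8.13, a difference of -1.26 (SE 0.34, adjusted p = 0.0867) with no overlap. Within the replicate numbers Id1 was lower by 1.05, 1.67 and 1.05, and Id3 by 0.84, 1.46 and 1.23. With the block the adjusted p was 0.000266 for Id1 and 0.000302 for Id3.

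The remaining members of that list included inhibitors of SMAD signalling. With the block Smad6 (-0.93) and Smad7 (-0.55) were also called, at adjusted p of 0.0197 and 0.0129, against 0.439 and 0.0976 without it. Id2 read 9.67, 9.28 and 9.12 at 0 h and 9.82, 8.97 and 8.76 at 1.5 h, and its groups overlapped. Its difference was -0.17 (SE 0.32, adjusted p = 0.886). Ptch1, the receptor of hedgehog ligands and a target of that pathway, read 6.5, 7.19 and 7.02 against 5.88, 6.20 and 5.74. The 1.5 h arrays were all lower, by -0.96 (SE 0.21, adjusted p = 0.0209). That call was lost with the mean of probe sets (0.277) and without replicate 2 or 3 of 0 h or 1 or 3 of 1.5 h, where adjusted p reached 0.183.

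The myogenic transcription factors held no called gene of 16 in limma, with a median of -0.0899. At an unadjusted p under 0.05, 3 were lower and 0 higher, against 920 lower and 930 higher over all 18193 genes. With the mean of probe sets 1 was called lower. Myod1 read 10.44, 10.07 and 9.64 at 0 h and 10.24, 10.05 and 9.52 at 1.5 h, with the same order of replicate numbers at both times. Its difference was -0.11 (SE 0.28, adjusted p = 0.923). Myog, which acts at the start of terminal differentiation, read 11.42, 9.32 and 9.71 against 11.48, 9.93 and 10.04. Replicate 1 was more than 1 log2 unit above the other growths at both times, and the difference was 0.33 (SE 0.64, adjusted p = 0.894). At -24 h, in growth medium, the mean of Myog was 5.64 ± 0.74 (SD, n = 3), against 10.15 ± 1.12 at 0 h. Myf5, a factor of proliferating myoblasts, read 8.15, 8.42 and 8.47 at 0 h and 7.77, 6.83 and 6.85 at 1.5 h. All 1.5 h arrays were lower, but the difference of -1.2 (SE 0.35) had an adjusted p of 0.138. It was called with the block (adjusted p = 0.0347).

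No gene of 37 in the sarcomere list was called in limma or had an unadjusted p under 0.05, and the median of 0.205 moved to 0.0363 without replicate 2 of 0 h. In the list of muscle signalling, fusion and caveolae, 2 of 35 rose and none fell, with a median of 0.123. Cavin4, a muscle protein of caveolae, read 8.37, 7.86 and 8.05 at 0 h and 8.94, 8.90 and 8.99 at 1.5 h. The growths were closer to each other at 1.5 h than at 0 h, and the difference was 0.85 (SE 0.16, adjusted p = 0.00474). Without replicate 2 of 0 h it did not pass (adjusted p = 0.0847). Lzts1, a leucine zipper protein known as a tumour suppressor, read 4.89, 4.69 and 4.69 against 5.55, 5.72 and 6.14. Every 1.5 h array was above 0 h, by 1.04 on average (SE 0.17, adjusted p = 0.00132). With the block Jph2, a junctophilin, was called higher (0.59, adjusted p = 0.0149).

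The called rises also included Nppb and Ptger4, which are on none of the lists. Nppb, the precursor of B-type natriuretic peptide, read 4.37, 4.38 and 4.68 at 0 h and 5.08, 5.29 and 5.75 at 1.5 h. Replicate 3 was the highest in both groups; the difference was 0.89 (SE 0.19, adjusted p = 0.0169), lost without replicate 1 or 2 of 0 h or replicate 3 of 1.5 h, where adjusted p reached 0.231. Ptger4, a receptor of prostaglandin E2 that raises cyclic AMP, read 8.91, 8.78 and 8.88 against 9.92, 9.58 and 9.68. The difference was 0.88 (SE 0.16, adjusted p = 0.00331), with a wide gap between the groups.

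Of 29 genes of cyclic AMP signalling, 1 fell and none rose, with a median of -0.0629. The gene was Pde4b, a phosphodiesterase that breaks down cyclic AMP, which read 8.06, 7.82 and 7.72 at 0 h and 7.35, 6.91 and 6.77 at 1.5 h. The order of the replicate numbers was the same at both times, and the difference was -0.86 (SE 0.15, adjusted p = 0.00294). The adenylate cyclase Adcy6 was called lower with the block (-0.41, adjusted p = 0.0140). Among 30 NF-kB targets, cytokines and chemokines, Tnfaip3 alone was called. It encodes A20, a feedback inhibitor of NF-kB, and read 6.08, 6.03 and 6.32 against 7.18, 7.15 and 6.94. The 3 arrays at 1.5 h stood above the 0 h arrays, by 0.94 (SE 0.16, adjusted p = 0.00194).

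Feedback inhibitors of kinase signalling gave 1 rise in 22, with a median of -0.112. It was Dusp10, a phosphatase of the stress kinases p38 and JNK, which read 7.32, 7.07 and 7.10 at 0 h and 7.89, 7.72 and 7.55 at 1.5 h. The groups did not overlap; the difference was 0.55 (SE 0.13, adjusted p = 0.0392), lost without replicate 2 or 3 of 0 h or 1 or 2 of 1.5 h (adjusted p up to 0.250), with trend and robust moderation (0.0591) and with the mean of probe sets (0.396). Socs3, an inhibitor of cytokine receptors, read 9.15, 9.08 and 9.47 against 7.92, 8.36 and 8.75. It was lower by 1.23, 0.71 and 0.72 within the replicate numbers, with an adjusted p of 0.0837 and, with the block, 0.000459.

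Among 13 Kruppel-like factors 1 fell and none rose, with a median of -0.0627. Klf3, a repressor, read 9.15, 9.27 and 9.54 at 0 h and 8.57, 8.57 and 8.48 at 1.5 h, a difference of -0.78 (SE 0.18, adjusted p = 0.0256). The 1.5 h arrays were nearly level with each other. Its call was lost with the mean of probe sets (0.0804) and without any array other than replicate 1 of 0 h (adjusted p up to 0.274), and 1 of its other probe sets with a mean of 6 or more went the other way, by 0.03. With the block 2 members were higher and 2 lower: Klf5 (1.01) and Klf11 (0.68) were higher, and Klf3 (-0.78) and Klf10 (-0.61) lower. Klf5, a factor of growth and vascular remodelling, read 8.18, 7.70 and 7.61 against 9.12, 8.84 and 8.55. Its adjusted p was 0.148 without the block and 9.99e-07 with it.

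In the list of forkhead and homeobox factors, 2 of 39 fell and none rose, with a median of -0.00705. Foxc2, a forkhead factor of mesenchymal lineages, read 7.71, 7.65 and 7.19 at 0 h and 6.58, 6.52 and 6.22 at 1.5 h. Replicate 3 was the lowest of both groups, and the difference was -1.07 (SE 0.19, adjusted p = 0.00294). Hoxc8, a homeobox factor, read 4.43, 4.67 and 4.78 against 3.59, 3.86 and 4.02, low values at both times. Its difference was -0.80 (SE 0.19, adjusted p = 0.0392), lost without any array other than replicate 1 of 0 h, with adjusted p up to 0.285. With the block Hoxa10 was called lower (-0.62, adjusted p = 0.0431).

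The largest fall was in Thap2, a protein with a THAP zinc finger. It read 6.51, 6.90 and 7.50 at 0 h and 5.55, 5.29 and 5.22 at 1.5 h. The spread at 0 h was wide, with replicate 3 the highest, and the 1.5 h arrays were close together. The difference was -1.62 (SE 0.35, adjusted p = 0.0196), a 3.07-fold fall. It was lost with the mean of probe sets (0.0773) and without replicate 2 or 3 of either time, where adjusted p reached 0.252.

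Most of the other large falls lost their call when any 1 of several arrays was left out, though they stayed lower. With 1 array left out, Mex3a ran from -0.97 to -0.72 and Mtrf1l from -1.10 to -0.64. Katnal1, related to the microtubule-severing katanin, read 6.19, 5.87 and 6.36 at 0 h and 5.50, 5.21 and 4.52 at 1.5 h, a difference of -1.06 (adjusted p = 0.0244, up to 0.324 with 1 array left out). Purg, a purine-rich element binding protein, read 6.75, 7.09 and 7.35 against 6.02, 6.00 and 6.28, a difference of -0.97 (adjusted p = 0.0193, up to 0.242). The Katnal1 call was lost without replicate 1 or 3 of 0 h or 2 or 3 of 1.5 h, and the Purg call without replicate 2 or 3 of 0 h or 1 or 2 of 1.5 h. Mex3a, an RNA-binding protein, read 7.79, 7.75 and 7.47 against 7.07, 6.83 and 6.58, a difference of -0.85 (adjusted p = 0.0139). Slc25a37, the iron carrier mitoferrin, read 8.6, 8.7 and 8.94 against 8.22, 7.63 and 7.78, a difference of -0.87 (adjusted p = 0.0358). In both the 1.5 h arrays were all lower. The Mex3a call was lost without replicate 1 or 2 of 0 h or 2 or 3 of 1.5 h (adjusted p up to 0.143). The Slc25a37 call was lost without any array other than replicate 1 of 1.5 h (up to 0.285) and when centred on housekeeping genes (0.0517). Mtrf1l, a mitochondrial release factor, read 5.14, 5.05 and 5.88 at 0 h and 4.87, 4.47 and 4.04 at 1.5 h, a difference of -0.90 (adjusted p = 0.0392). Replicate 3 was the highest at 0 h and the lowest at 1.5 h. Its call was lost without replicate 3 of 0 h or 2 or 3 of 1.5 h (adjusted p up to 0.477) and without the cycloheximide arrays (0.0505). Zfp82, a zinc finger protein, read 4.57, 4.67 and 4.93 against 3.56, 3.86 and 4.22, a difference of -0.84 (adjusted p = 0.0492). These are low values, and the call was lost without any array other than replicate 3 of 1.5 h (up to 0.342), without the cycloheximide arrays (0.0715) and with the mean of probe sets (0.0804), where the difference was -0.37. Khnyn, a KH domain and nuclease-fold protein, read 6.35, 6.22 and 6.06 against 5.28, 5.46 and 5.37. Its difference of -0.84 (SE 0.14, adjusted p = 0.00132) passed without any single array, though not with the mean of its probe sets (0.0941).

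Further called genes came from no list. Gcnt2, which adds branches to glycans, read 6.29, 6.61 and 6.48 at 0 h and 7.36, 7.34 and 7.37 at 1.5 h. The 1.5 h arrays were almost equal, and the difference was 0.90 (SE 0.19, adjusted p = 0.0151). That call was lost with the mean of probe sets (0.239) and without replicate 1 or 3 of 0 h or 2 or 3 of 1.5 h (adjusted p up to 0.0848). Coq10b, a mitochondrial protein of coenzyme Q function, read 8.39, 8.42 and 8.62 against 9.18, 9.21 and 9.46, a difference of 0.81 (SE 0.12, adjusted p = 0.000711). Replicate 3 was the highest in both groups. Of the falls, the histone demethylase Kdm6b and the glycosyltransferase Ogt differed by -0.82 each (adjusted p = 0.0274 and 0.0278), and Apaf1, the core of the apoptosome, by -0.81 (adjusted p = 0.0392). Each of these 3 calls was lost without 5 or more of the 6 arrays, the 3 arrays of 0 h and replicates 2 and 3 of 1.5 h among them, with adjusted p up to 0.345. Centring on housekeeping genes also ended the calls of Ogt (0.0513) and Apaf1 (0.0504), and quantile normalization again those of Kdm6b (0.0559) and Apaf1 (0.0998). With the mean of probe sets the difference was -0.34 for Kdm6b (0.102) and -0.59 for Ogt (0.0572).

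Among 37 secreted growth factors and receptors, 2 were called, in opposite directions, and the median of that list was -0.0528. Edn1 rose, as given above. Vegfa, the vascular endothelial growth factor, read 7.17, 7.65 and 7.33 at 0 h and 6.99, 6.68 and 6.29 at 1.5 h. The highest 1.5 h array lay just under the lowest 0 h array, and the difference was -0.73 (SE 0.15, adjusted p = 0.0159). That call was lost with the mean of probe sets (0.235) and without replicate 2 or 3 of either time (adjusted p up to 0.234). Vegfa was also the 1 called gene of 21 in hypoxia and glycolysis, and Ddit4 the 1 of 25 in the unfolded protein and amino acid response, where the chaperone Hsp90b1 joined it with the block (-0.60, adjusted p = 0.0483). With the block, Pgf (-0.68), Pdgfra (-0.65) and Efna1 (-0.70) were called too, at adjusted p of 0.0184, 0.0298 and 0.0115.

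Genes of the FoxO targets and growth factor withdrawal list numbered 27, of which 1 rose and none fell. Cited2, a regulator of the coactivators CBP and p300, read 10.93, 10.98 and 10.92 at 0 h and 11.63, 11.49 and 11.26 at 1.5 h. The 0 h arrays were close together and below all 1.5 h arrays. The difference was 0.52 (SE 0.11, adjusted p = 0.0169), lost with the mean of probe sets (0.245) and without any array other than replicate 3 of 1.5 h (adjusted p up to 0.103). Cdkn1b, the p27 inhibitor of cyclin-dependent kinases, differed by -0.76, with an adjusted p of 0.130 and, with the block, 0.00885.

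Proliferation genes held no call in limma with the fit used throughout; the filter on low values, or leaving out replicate 1 of 1.5 h, gave 1 lower gene of the G1 list. Of 35 genes of DNA replication (median 0.0396) 1 was lower at an unadjusted p under 0.05 and none higher. Of 30 genes of mitosis (median -0.145) 3 were lower on that count, and of 22 G1 cyclins and cell cycle inhibitors (median -0.0226) 4. The kinetochore motor Cenpe read 6.52, 6.82 and 7.53 at 0 h and 6.42, 5.92 and 5.27 at 1.5 h. Its arrays were spread over more than 1 log2 unit within each group, and the difference of -1.09 (SE 0.46) had an adjusted p of 0.408. Ccnd1, cyclin D1, read 9.75, 9.48 and 9.67 at 0 h and 9.57, 9.16 and 9.57 at 1.5 h. The groups overlapped, with a difference of -0.20 (SE 0.19, adjusted p = 0.752). With the block, Cdkn1b and E2f3 (-0.59, adjusted p = 0.0104) of the G1 list were called lower. The 30 genes of ribosome biogenesis (median 0.0959), 20 splicing kinases and SR proteins (median -0.321), 13 genes of the Myc network (median 0.00354) and 36 genes of the extracellular matrix (median 0.0238) had no call either. At an unadjusted p under 0.05, ribosome biogenesis had 3 higher and 0 lower, and splicing 3 higher and 5 lower. The Myc network had 2 and 2, and the matrix 3 and 1. Over all 18193 genes, 930 were higher and 920 lower on that count. The splicing kinase Clk2 was the 1 gene of these lists called with the block, at -0.49 (adjusted p = 0.00452 against 0.0513), and 1 lower gene of its list was called in 4 further settings, among them the filter on low values. There was also no call among 19 Notch pathway genes (median -0.0678), 14 of the insulin-like growth factor axis (-0.0507), 29 of the Wnt pathway (-0.02), 17 of heat shock (0.0717) and 21 of sterol and fatty acid synthesis (-0.0247), with 1, 1, 6, 1 and 3 genes at an unadjusted p under 0.05. The markers of adipocytes (6 genes), bone and cartilage (8), smooth muscle (8) and neurons (8) and the 24 housekeeping genes held none, with 2, 1, 0, 2 and 1.

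The place of 1.5 h in the course is given next, as levels at the neighbouring times. The means of Ccn2 at 0, 0.5, 1, 1.5, 2 and 3 h were 10.22 ± 0.09 (SD, n = 3), 11.30 ± 0.07, 12.39 ± 0.10, 12.30 ± 0.28, 11.62 ± 0.39 and 10.86 ± 0.14. Its mean at 1.5 h was within the spread of that at 1 h. For 1, 1.5 and 2 h the means of Noct were 7.46 ± 0.33, 7.81 ± 0.04 and 7.29 ± 0.26. Cavin4 had 8.53 ± 0.28, 8.94 ± 0.05 and 9.25 ± 0.09 at those times and reached 9.68 ± 0.05 by 3 h, each mean above the one before. For Tob1 the means at 0, 0.5, 1.5 and 3 h were 8.61 ± 0.29, 7.93 ± 0.24, 7.44 ± 0.08 and 8.38 ± 0.08, so that the last was near the first. Thap2 was likewise near its starting mean of 6.97 ± 0.50 by 3 h (6.79 ± 0.13). Id3, by contrast, went from 11.83 ± 0.23 to 10.65 ± 0.41 and 10.38 ± 0.36 over 0, 1.5 and 3 h.

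**Figure D3:**
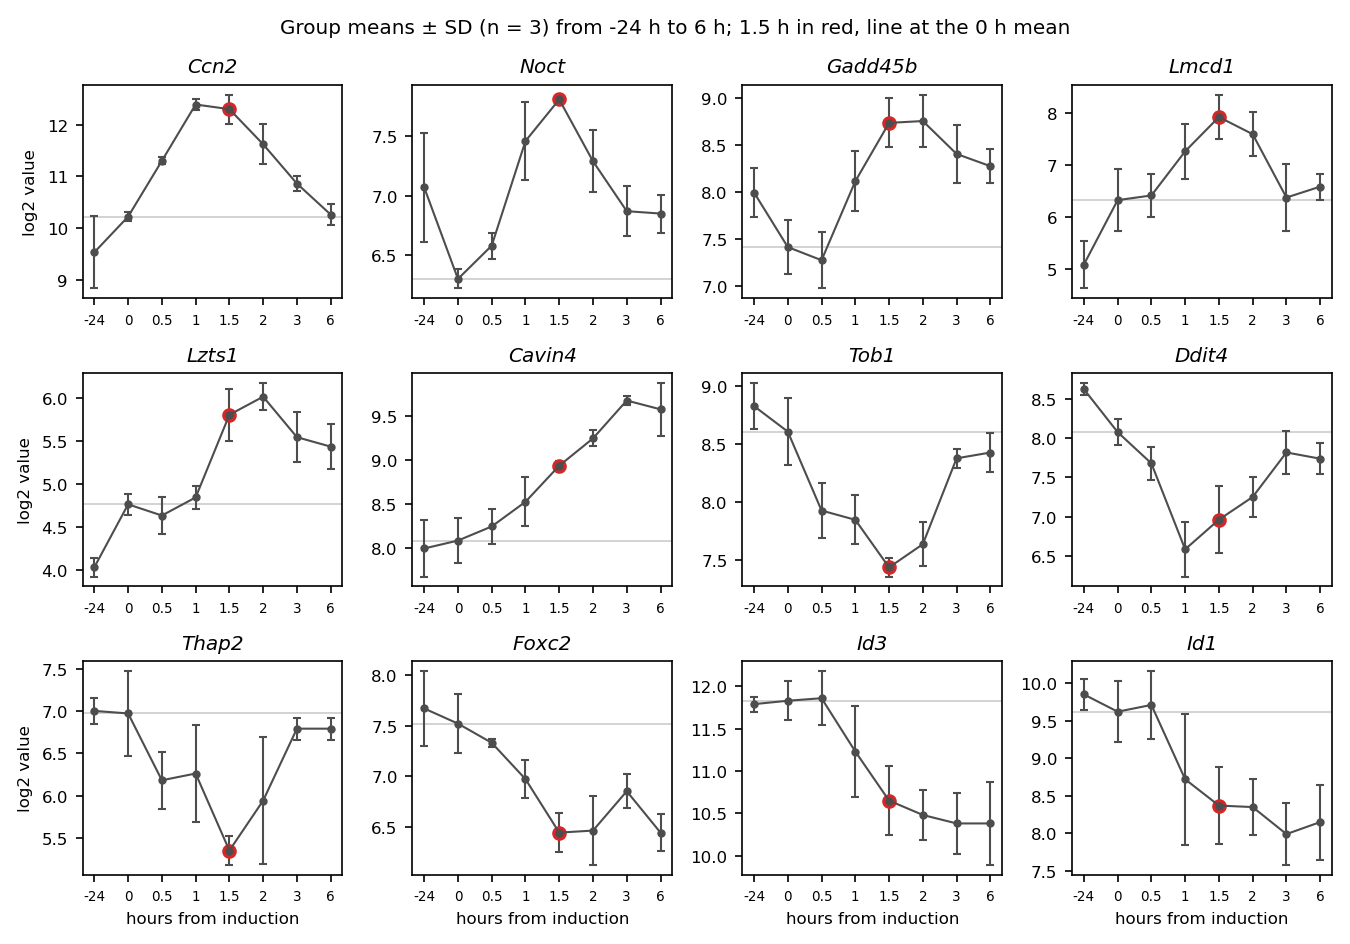
Group means of the log2 value with SD (n = 3) for 12 genes at -24 h, at 0 h and at 6 later times up to 6 h, spaced equally on the axis; 1.5 h is in red and the grey line marks the 0 h mean. By their means, Tob1 and Thap2 are lowest at 1.5 h and near the 0 h mean at 3 h, Noct is highest at 1.5 h, and Id3 and Id1 stay below the 0 h mean to 6 h. Tob1, Thap2 and Noct were not called between 1 h and 1.5 h or between 1.5 h and 2 h.

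Between 1 h and 1.5 h, 9 of 18193 genes differed (0.0495%), 1 higher at 1.5 h (0.0055%) and 8 lower (0.044%). The one that was higher was Lzts1, with 4.84 ± 0.13 (SD, n = 3) at 1 h and 5.80 ± 0.30 at 1.5 h, a difference of 0.96 (SE 0.17, adjusted p = 0.00613). Its mean at 1 h lay within the spread at 0 h. This call was lost without replicate 2 or 3 of 1 h or replicate 3 of 1.5 h, with adjusted p up to 0.241.

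The 8 lower genes were Fos, Egr1, Egr2, Ier3, Errfi1, Trib1, Phlda1 and Edn1. Fos fell from 8.65 ± 1.2 at 1 h to 6.63 ± 0.23 at 1.5 h, a difference of -2.02 (SE 0.29, adjusted p = 2.67e-04). The 3 growths differed widely at 1 h. Egr1 fell from 12.43 ± 0.16 to 10.91 ± 0.24, by 1.52 on the log2 scale (SE 0.15, adjusted p = 9.92e-08), and Egr2, its relative, from 10.32 ± 0.32 to 9.09 ± 0.39 (-1.23, SE 0.22, adjusted p = 0.00613). The Fos and Egr1 calls held whichever array was left out, with differences of -2.51 to -1.35 for Fos and -1.65 to -1.42 for Egr1. These SEs rest on the spread over all groups, and not on that of Fos at 1 h. A limma fit to the 1 h and 1.5 h arrays alone called no gene (smallest adjusted p 0.0787). The Egr2 call was lost without replicate 2 or 3 of either time, where adjusted p reached 0.241.

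Ier3, an early response gene that protects cells from death, fell from 9.23 ± 0.77 to 8.07 ± 0.36 (-1.17, adjusted p = 0.0223), and at 1.5 h it stood below its 8.75 ± 0.02 at 0 h by 0.68 (adjusted p = 0.233). Errfi1 and Trib1, an inhibitor of the EGF receptor and a pseudokinase, fell by 1.10 and 0.79 (adjusted p = 0.0313 and 0.0436). Phlda1, a pleckstrin homology domain protein, fell from 10.63 ± 0.03 to 9.73 ± 0.37 (-0.90, adjusted p = 0.00203), to near its 9.77 ± 0.07 at 0 h. Edn1 fell from 6.61 ± 0.34 to 5.83 ± 0.20 (-0.78, adjusted p = 0.00419), but remained above 0 h. Of these calls Ier3 was lost without replicate 1 or 3 of 1 h or 2 or 3 of 1.5 h (adjusted p up to 0.431), and on its probe set without possible cross-hybridisation the difference was -0.08. Errfi1 was lost without any array other than replicate 1 of 1.5 h, and Trib1 without any of the 6, both with adjusted p up to 0.778. Both also missed the threshold after quantile normalization again (0.0525 and 0.229) and with the mean of probe sets (0.128 and 0.0772), Errfi1 without the cycloheximide arrays (0.0520), and Trib1 with trend and robust moderation (0.0558). Phlda1 was lost without replicate 2 or 3 of 1.5 h (0.0748), and Edn1 without those or replicate 3 of 1 h (0.134).

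**Figure D4:**
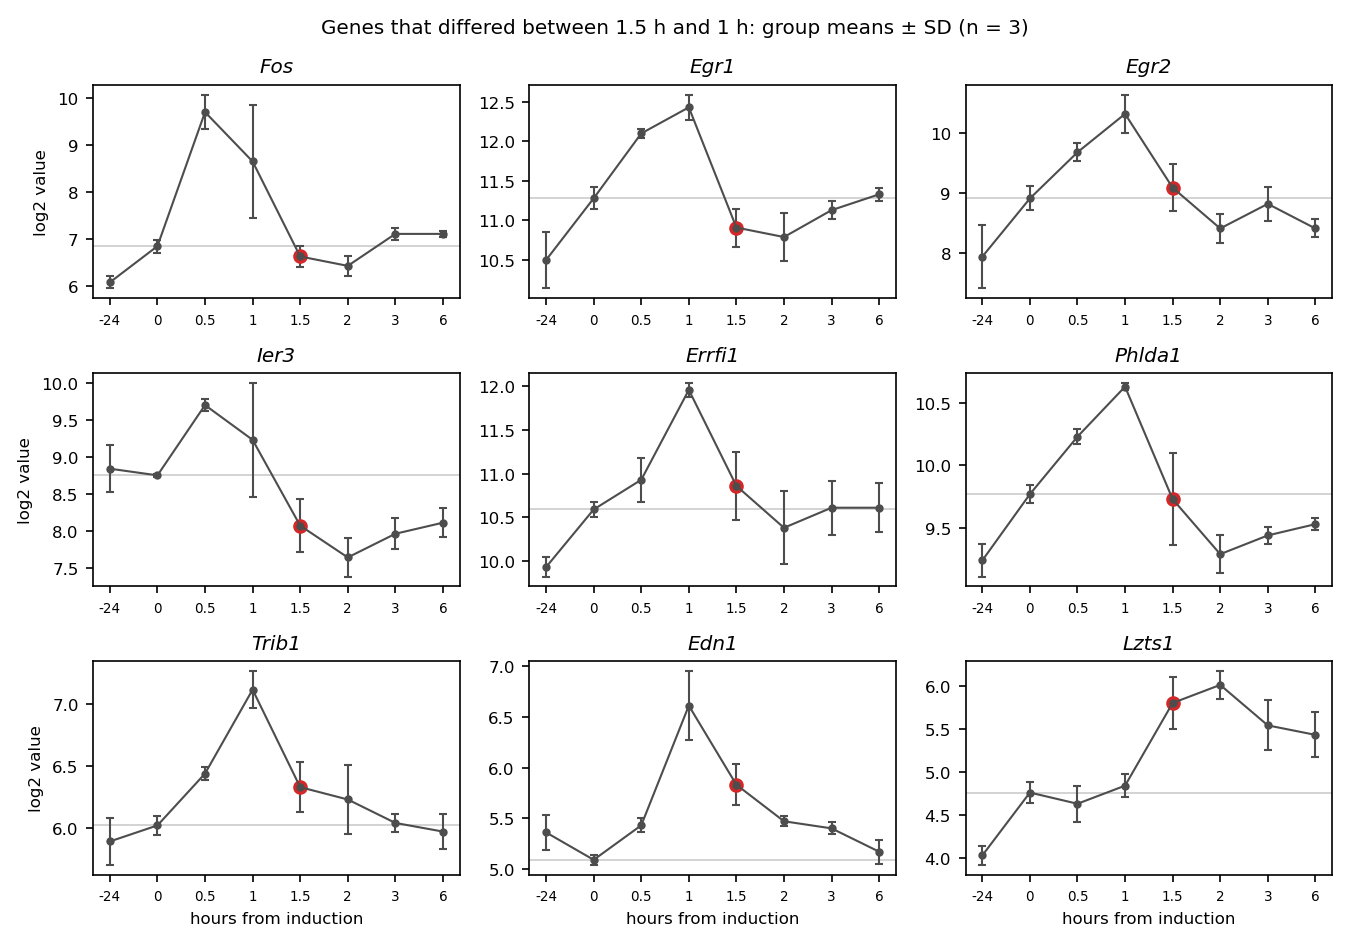
Group means of the log2 value with SD (n = 3) for the 9 genes that differed between 1.5 h and 1 h, at -24 h, at 0 h and at 6 later times up to 6 h, spaced equally on the axis; 1.5 h is in red and the grey line marks the 0 h mean. The 8 lower genes are higher at 1 h than at 1.5 h, while Lzts1 rises from 4.84 at 1 h to 5.80 at 1.5 h.

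Between 1.5 h and 2 h limma called no gene of 18193, with a smallest adjusted p of 0.282; 717 genes had an unadjusted p under 0.05. Lmcd1 had 7.92 ± 0.43 (SD, n = 3) at 1.5 h and 7.59 ± 0.42 at 2 h, and Gadd45b 8.73 ± 0.26 and 8.75 ± 0.28. The comparisons with 0 h, 1 h and 2 h share the 1.5 h arrays, so they are not independent of each other.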

How the data were processed

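The values are log2 expression as deposited by the authors, made with RMA (background correction, normalization between arrays and a summary per probe set), per the submitters' processing notes; its version and whether all arrays were processed together are not given in the sources used here. Of 45101 probe sets, 64 controls were left out and 34945 with exactly 1 gene symbol in the platform annotation were kept; each of 18193 genes was read on its probe set of highest mean over the 48 arrays. limma 3.58.1 in R 4.3.3 was fitted with 1 coefficient per group to all 48 arrays (32 residual degrees of freedom), with default eBayes and two-sided tests; p-values were adjusted by Benjamini-Hochberg over all genes, and levels are log2 values. The number of arrays limits the precision. The script was tested on simulated data.

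Gene values printed array by array are those of the 15 called rises and falls of largest size, the called members of lists and fixed myogenic and early genes; clone names are counted only, and the genes named for a call with the block alone were picked after their values were seen. Where a list held no call, its members of largest difference could be named. The members and the 39 lists were chosen with earlier results of these data known. Replicate numbers were taken to pair the 0 h and 1.5 h arrays. The design text says that triplicates came from successive passages, though not that a number marks one. The deviations of same-numbered arrays from their group means correlated at 0.136, 0.374 and 0.178 over genes. Replicate 1 of 0 h also correlated at 0.166 with replicate 2 of 1.5 h. Replicate 3 of 0 h gave 0.149 with replicate 1 of 1.5 h, and replicate 2 of 0 h gave 0.125 with replicate 3 of 1.5 h. Alternatives covered the block, the arrays in the fit, moderation, scaling, probe set choice, a filter on low values and leaving out each array.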

Additional observations from a re-analysis of the deposited data

Results flagged for a closer look

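The difference between the 1.5 h and 1 h effects was tested directly for all genes and passed in limma for 9, with log2 values, 1.5 h minus 1 h, of 0.96 for Lzts1, -0.78 for Edn1, -1.17 for Ier3, -1.52 for Egr1, -0.79 for Trib1, -1.10 for Errfi1, -1.23 for Egr2, -2.02 for Fos and -0.90 for Phlda1. Edn1 is the one of the lower genes that was still called above 0 h at 1.5 h. When all 45101 probe sets were tested, 107 differed between 1.5 h and 0 h, and 10 of these are among the 10156 without a single gene symbol, which the comparisons above do not use.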

How the results depend on the processing

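Against 0 h, 77 genes were called, and the count was 227 with the replicate block, 2 in a fit to the 6 arrays compared alone (Ccn2 and Noct; 2097 genes at an unadjusted p under 0.05) and 51 in that fit with the replicate block, 32 of them shared with the 77. Leaving out 1 array gave 27 to 66. The other settings gave 70 to 96, and quantile normalization again moved the share of higher calls from 49.4% to 55.2%; the block gave 37.4% and the cause was not tested. Beside the results given with it above, the block changed no other call among the named genes. Against 1 h, where the correlations of same-numbered arrays were -0.144, -0.0584 and 0.273 and pairing was not taken as shown, 9 genes were called. The count was 21 with the replicate block, 14 when centred on housekeeping genes, 5 without probe sets ending in _s_at, _x_at or _a_at, and 0 in limma on the 6 arrays alone, without or with the replicate block (388 and 414 genes at an unadjusted p under 0.05). Leaving out 1 array gave 2 to 13: 6, 8 and 3 without replicates 1, 2 and 3 of 1 h, and 13, 3 and 2 without those of 1.5 h. Against 2 h (correlations 0.0722, 0.0845 and 0.436) the count was 0 in every setting, the replicate block included, other than without replicate 3 of 1.5 h, where it was 1, so that leaving out 1 array gave 0 to 1. Ccn1 turned to -0.053 without the probe sets that can cross-hybridise, on a probe set with a mean of 6.45 against 10.14 for the one used above. With 1 array left out, Myod1 ran from -0.32 to 0.10, Myog from -0.17 to 0.97, Cdkn1a from -0.025 to 0.61 and Id2 from -0.49 to 0.037. Other values that moved by over 1.5 times were Ccn1 (0.37 to 1.03), Nr4a1 (1.2 to 2.44), Myc (0.20 to 0.61), Fos (-0.33 to -0.10) and Ccnd1 (-0.28 to -0.06). The medians of 20 of the 39 lists, none over 0.112 from 0, changed sign in at least 1 setting, 10 with another processing and 15 with 1 array left out. The clock list went from 0.105 to -0.0985 and the Kruppel-like factors from -0.0627 to 0.0446 with the filter on low values, the G1 cyclin, Wnt and secreted factor lists turned with quantile normalization again, and the insulin-like growth factor axis ran from -0.213 without replicate 3 of 0 h to 0.0783 without replicate 3 of 1.5 h. Of the 77, 8 had both means under 5, and 46 genes had other probe sets, 93 in all, of which 68 had the same sign. Of the 26 at a mean of 6 or more, 23 had it.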
